A study of Arabidopsis with 12 samples.

Results

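FMA (AT3G24140, also called FAMA) encodes a basic helix-loop-helix (bHLH) transcription factor of guard cell fate, and its transcript was followed here in whole Arabidopsis seedlings of 2 genotypes on 2 media. It is 1 gene of the 16550 that could be named on the arrays, and 1 probe set stands for it. FMA was chosen because its own levels differed between these groups, so its values are given as a description, without a test. The groups were tori 35-7 under water deficit, tori 35-7 on control medium, Col-0 under water deficit and Col-0 on control medium, with 3 arrays each. Col-0 is the standard laboratory accession and served as the wild type. The labels give tori 35-7 by name only, without its lesion, and the study asks how transcript responses to water deficit depend on TOR, a kinase that ties growth to the supply of nutrients. Seedlings of all groups had grown for 5 days at 22 °C before they were moved for 72 h, those under water deficit to a medium with 2% agar and the controls to one with 0.8% agar, and all were sampled at an age of 8 days.

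Stomata, the pores through which leaves exchange gas and lose water, form in a lineage of epidermal cells that is steered by 3 related bHLH factors acting in turn. SPCH starts the lineage with asymmetric divisions, MUTE turns a meristemoid into a guard mother cell, and FMA lets that cell divide once and then locks the daughters in guard cell identity. Without FMA, guard mother cells go on dividing and form rows of small cells instead of pores. FMA is also needed for myrosin cells, the inner leaf cells that store the defence enzyme myrosinase.

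The deposited values were taken as log2 levels, so a difference of 1 is a doubling. The median over all probe sets lay between 3.06 and 3.19 on the 12 arrays. The spread of values was narrowest on Col-0 water deficit replicate 1 (interquartile range 2.56) and tori 35-7 control replicate 1 (2.68), against 2.91 to 3.08 on the other 10 arrays. Many results that these 2 arrays move in sign, call or by more than 1.5 times are also given without them. Others are given over 12 arrays only, so a value given once need not be steady against these 2 arrays. All RNA came from whole seedlings, so fewer cells of a type cannot be told apart from less RNA in each cell.

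In tori 35-7 under water deficit, FMA levels were 5.59, 5.57 and 5.69, against 4.48, 4.77 and 5.06 in tori 35-7 on control medium. These groups did not overlap, and the closest arrays were 0.51 apart. In Col-0, FMA levels were 5.65, 6.33 and 6.09 under water deficit, against 5.73, 5.45 and 5.47 on control medium. Here 1 water deficit array, replicate 1, lay inside the range of the controls, so the groups overlapped. That array and tori 35-7 control replicate 1, which had the lowest FMA level of all 12, were the 2 arrays of narrowest spread.

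**Figure D1:**
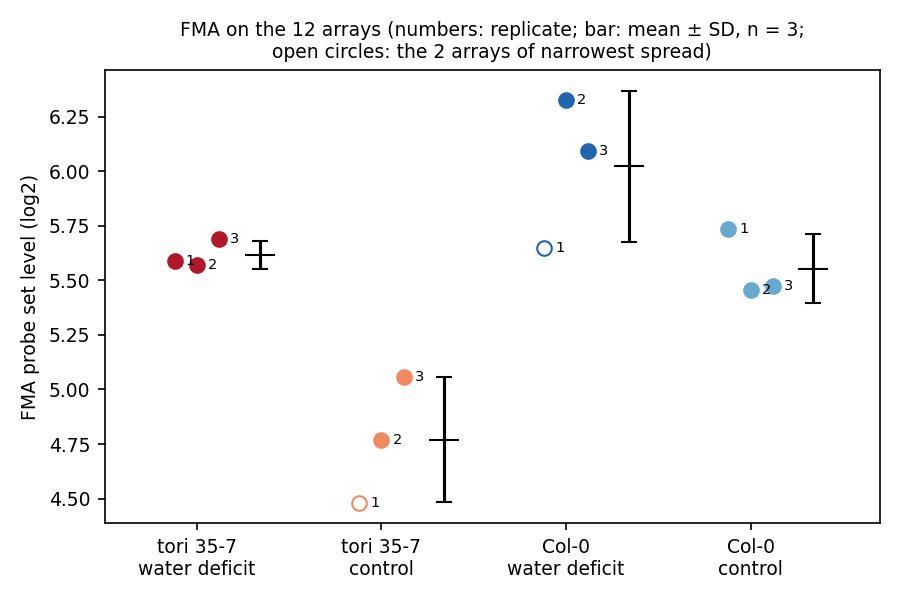
FMA probe set level (log2, vertical axis) on each of the 12 arrays, by group, with the mean ± SD (n = 3) beside the points and the 2 arrays of narrowest spread as open circles. The tori 35-7 control arrays (4.48 to 5.06) sit below all other 9 arrays, and the highest level, 6.33, is that of Col-0 water deficit replicate 2.

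The group means were 5.62 ± 0.07 in tori 35-7 under water deficit, 4.77 ± 0.29 in tori 35-7 on control medium, 6.02 ± 0.35 in Col-0 under water deficit and 5.55 ± 0.16 in Col-0 on control medium (SD, n = 3 each). The lowest group was thus tori 35-7 on control medium, 0.78 below its neighbour in the order, Col-0 on control medium, without overlap. Next came tori 35-7 under water deficit, which differed from Col-0 on control medium by 0.06 with overlapping arrays. Col-0 under water deficit was the highest, 0.41 above tori 35-7 under water deficit, again with overlap. FMA in tori 35-7 seedlings under water deficit was therefore at about the level of Col-0 seedlings that had not been stressed. Over all 12 arrays the level ranged over 1.85 log2 units or 3.60-fold, and 98.0% of the genes had a smaller SD over the 12 arrays. Its spread within groups was 0.24 (SD, 8 residual degrees of freedom), larger than that of 68.3% of the genes.

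FMA was higher under water deficit than on control medium in both genotypes. The difference was 0.85 ± 0.18 in tori 35-7, which is 1.80-fold, and 0.47 ± 0.18 in Col-0, which is 1.38-fold (± SE of the model fitted to all 12 arrays). In tori 35-7 the water deficit array was higher in 9 of 9 pairs of arrays, by 0.51 to 1.21, and in Col-0 in 8 of 9, with pair differences of -0.09 to 0.87. Of all genes, 11.1% had water deficit arrays entirely above the controls in tori 35-7 and 7.26% in Col-0. FMA had the 90th largest increase of the 16550 genes in tori 35-7 and the 552nd in Col-0. Its response was 0.38 ± 0.26 larger in tori 35-7 than in Col-0. Without the 2 arrays of narrowest spread, the responses were 0.70 ± 0.14 in tori 35-7 and 0.66 ± 0.14 in Col-0, and their difference was 0.047 ± 0.20. The responses of the genotypes were thus close to each other on the remaining 10 arrays. A single array also moved their difference by more than 1.5 times, to 0.19 ± 0.22 without Col-0 water deficit replicate 1 and to 0.24 ± 0.25 without tori 35-7 control replicate 1.

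FMA was lower in tori 35-7 than in Col-0 on both media. On control medium the difference was -0.78 ± 0.18, or 1.72-fold lower in tori 35-7, with 9 of 9 pairs of arrays in this direction. FMA had the 76th lowest difference of the 16550 genes there, and 11.4% of all genes had tori 35-7 arrays entirely below those of Col-0. Under water deficit the difference was -0.41 ± 0.18, or 1.32-fold lower in tori 35-7, with 8 of 9 pairs in this direction and overlapping groups, and 8.05% of all genes had tori 35-7 arrays entirely below Col-0. Without the 2 arrays of narrowest spread the genotypes differed by -0.64 ± 0.14 on control medium and by -0.59 ± 0.14 under water deficit, so the gap was then of similar size on both media. Under water deficit it moved by more than 1.5 times with 1 array, to -0.25 ± 0.18 without Col-0 water deficit replicate 2. The response to water deficit and the genotype difference on a medium share arrays, those of tori 35-7 on control medium above all, and are not independent of each other.

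**Figure D2:**
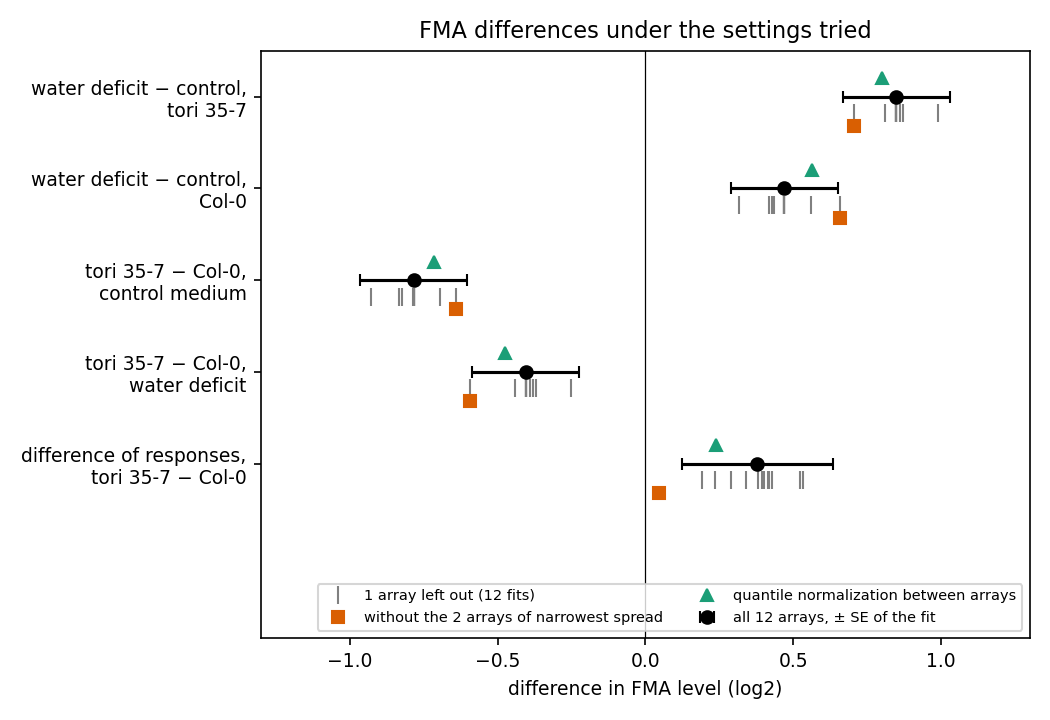
Differences in FMA level (log2, horizontal axis) for the 4 comparisons of groups and for the difference of the responses, from the fit to 12 arrays (black, ± SE), with 1 array left out (grey ticks), without the 2 arrays of narrowest spread (orange squares) and after quantile normalization (green triangles). All settings shown put FMA higher under water deficit and lower in tori 35-7, while the difference of the responses lies between 0.047 and 0.53.

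The other genes of the stomatal lineage were set beside FMA from lists drawn up from general knowledge, in order of their role. Of 11 transcription factors of the lineage other than FMA, 3 were measured (SPCH, MUTE and SOL1), and FMA's bHLH partners ICE1 and SCRM2 were not analysed here. None of the 3 was past the threshold in the 5 comparisons made (limma, adjusted p 0.05 over all genes). In the water deficit comparisons the share of all genes that passed was 1.16% in tori 35-7 and 1.23% in Col-0, and in the genotype comparisons it was 0.568% on control medium and 0.822% under water deficit. For the difference of the responses it was 0.00604%, which is 1 gene.

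SPCH, the factor that opens the lineage, had levels of 5.35, 5.13 and 5.79 in tori 35-7 under water deficit, against 4.35, 5.40 and 5.76 in tori 35-7 on control medium. In Col-0 its levels were 4.13, 5.49 and 5.52 under water deficit, against 5.55, 5.27 and 5.25 on control medium. The groups overlapped in both genotypes, and the low values of 4.35 and 4.13 were those of the 2 arrays of narrowest spread. The SPCH response was 0.25 ± 0.36 in tori 35-7 (adjusted p = 0.933) and -0.31 ± 0.36 in Col-0 (adjusted p = 0.8). The 95% interval in tori 35-7, -0.53 to 1.03, takes in the value of FMA there (0.85). Without the 2 arrays of narrowest spread both estimates turned, to -0.16 ± 0.18 in tori 35-7 (adjusted p = 0.821) and 0.15 ± 0.18 in Col-0 (adjusted p = 0.774), so neither has a settled sign.

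MUTE, which acts just before FMA, had levels of 2.17, 2.20 and 2.26 in tori 35-7 under water deficit, against 2.44, 2.01 and 2.10 in tori 35-7 on control medium. In Col-0 they were 2.81, 2.68 and 2.54 under water deficit, against 2.33, 1.89 and 2.35 on control medium. The Col-0 groups did not overlap and the tori 35-7 groups did. The MUTE response was 0.03 ± 0.16 in tori 35-7 (adjusted p = 0.99) and 0.49 ± 0.16 in Col-0 (adjusted p = 0.164), and their difference, tori 35-7 minus Col-0, was -0.46 ± 0.22 (adjusted p = 0.829). In Col-0 the estimates of MUTE (0.49) and FMA (0.47) lay side by side, while in tori 35-7 they were 0.03 and 0.85. Whether the responses of these 2 genes differ was not tested. Without the 2 arrays of narrowest spread MUTE was at 0.16 ± 0.15 in tori 35-7 (adjusted p = 0.752) and 0.42 ± 0.15 in Col-0 (adjusted p = 0.166). The difference of its responses was then -0.27 ± 0.21 (adjusted p = 0.832). All MUTE levels (1.89 to 2.81) lay below the median over all probe sets, which was 3.06 to 3.19 on the 12 arrays. How far they stand above background is unknown. Between the genotypes MUTE differed by -0.01 ± 0.16 on control medium (adjusted p = 0.995), where FMA was 0.78 lower in tori 35-7, and by -0.47 ± 0.16 under water deficit (adjusted p = 0.196).

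SOL1, a cysteine-rich DNA-binding factor that helps cells move from one lineage stage to the next, had a response of -0.13 ± 0.21 in tori 35-7 (adjusted p = 0.938) and -0.65 ± 0.21 in Col-0 (adjusted p = 0.159). Its estimates had the opposite sign to those of FMA in both genotypes, without passing, also without the 2 arrays of narrowest spread (-0.29 ± 0.15 in tori 35-7 and -0.41 ± 0.15 in Col-0, adjusted p = 0.477 and 0.2). On control medium SOL1 was at 4.05 ± 0.28 in tori 35-7 and at 4.49 ± 0.20 in Col-0 (SD, n = 3 each), a difference of -0.44 ± 0.21 (adjusted p = 0.497), or -0.29 ± 0.15 without those arrays (adjusted p = 0.504).

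Of 19 genes of stomatal patterning, which carry signals between epidermal cells or set the polarity of divisions, 2 were measured, and neither passed in any comparison. Of all genes 0.00604% to 1.23% passed, so this count is near the share of all genes. STOMAGEN encodes a secreted peptide that promotes stomata. It was at 4.41 ± 0.19 in tori 35-7 under water deficit, 4.35 ± 0.18 in tori 35-7 on control medium, 4.85 ± 0.17 in Col-0 under water deficit and 4.36 ± 0.14 in Col-0 on control medium (SD, n = 3 each). Its response was 0.06 ± 0.15 in tori 35-7 (adjusted p = 0.969) and 0.49 ± 0.15 in Col-0 (adjusted p = 0.144), values close to those of MUTE. Without the 2 arrays of narrowest spread it was 0.14 ± 0.15 in tori 35-7 (adjusted p = 0.787) and 0.56 ± 0.15 in Col-0 (adjusted p = 0.0675). ATBRXL2, a polarity protein of the asymmetric divisions, was at 5.59, 5.38 and 5.44 in tori 35-7 under water deficit, against 4.82, 4.92 and 5.06 in tori 35-7 on control medium. In Col-0 it was at 4.98, 5.34 and 5.07 under water deficit, against 4.61, 4.77 and 4.77 on control medium. As for FMA, both estimates were above 0, at 0.53 ± 0.13 in tori 35-7 (adjusted p = 0.0812) and 0.41 ± 0.13 in Col-0 (adjusted p = 0.167), and here neither pair of groups overlapped. Between the genotypes ATBRXL2 went the other way from FMA, with estimates of 0.22 ± 0.13 on control medium (adjusted p = 0.662) and 0.34 ± 0.13 under water deficit (adjusted p = 0.284). The tori 35-7 arrays lay above those of Col-0 without overlap on both media, as they did for 7.86% of all genes on control medium and for 8.61% under water deficit. The ATBRXL2 response in tori 35-7 passed with array weights (adjusted p = 0.0176) and without Col-0 water deficit replicate 1 (0.0361) or replicate 2 (0.0482), and that in Col-0 passed after quantile normalization (0.0456).

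**Figure D3:**
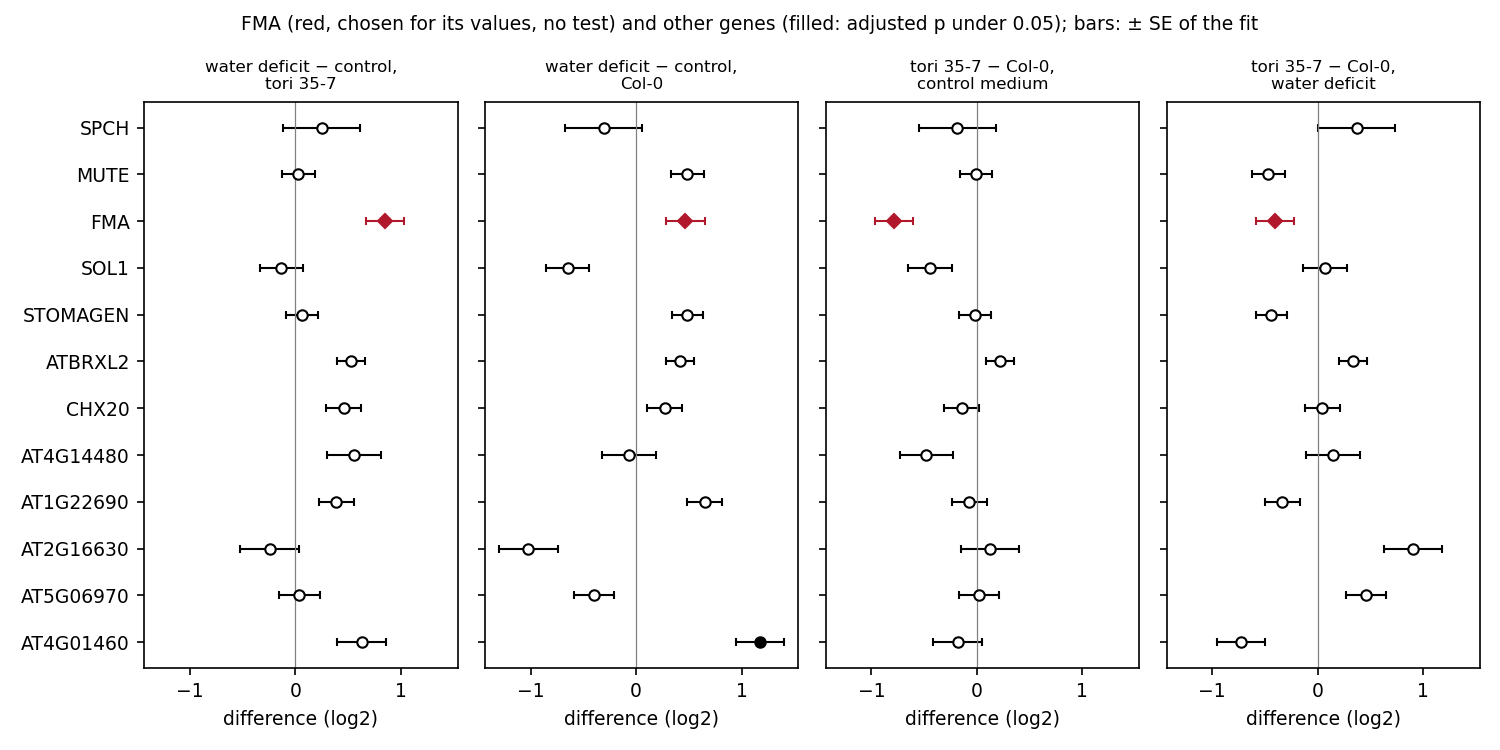
Differences in level (log2, horizontal axes, ± SE of the fit to 12 arrays) of FMA (red diamonds), the measured stomatal and guard cell genes and AT4G01460 in the 4 comparisons of groups, with filled circles for genes past adjusted p 0.05. FMA lies at 0.85 and 0.47 in the water deficit panels and at -0.78 and -0.41 in the genotype panels, and the 1 filled circle is AT4G01460 in Col-0 at 1.17.

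The bHLH genes most closely related to FMA form group Ia of the family, and 8 of the 9 others of that group were measured, SPCH and MUTE among them. In Col-0, 1 of the 8 rose under water deficit, where 0.671% of all genes rose. This was AT4G01460, which the reference table gives by its locus alone. Its levels were 4.30, 5.47 and 5.19 in Col-0 under water deficit, against 3.60, 3.81 and 4.03 in Col-0 on control medium, a difference of 1.17 ± 0.23 or 2.26-fold (adjusted p = 0.0233). In tori 35-7 they were 4.39, 4.17 and 4.22 under water deficit, against 3.56, 3.78 and 3.56 on control medium, a difference of 0.63 ± 0.23 (adjusted p = 0.323). The groups did not overlap in either genotype, and the difference between the responses was -0.55 ± 0.33 (adjusted p = 0.838). Without the 2 arrays of narrowest spread that difference was -0.92 ± 0.22 (adjusted p = 0.315). The call in Col-0 was lost in 6 of 21 other settings, with an adjusted p up to 0.197. These were the fit to the 6 Col-0 arrays and the fits without Col-0 control replicate 1, 2 or 3 or without Col-0 water deficit replicate 2 or 3. The response in tori 35-7 passed in 3 of the 21 other settings, with array weights (adjusted p = 0.0217), on the 6 arrays of tori 35-7 alone (0.0361) and without Col-0 water deficit replicate 1 (0.0286).

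The other 5 group Ia genes, AT3G61950, AT2G46810, AT1G22490, AT1G72210 and AT5G65320, had responses between -0.11 and 0.19 in tori 35-7 and between -0.09 and 0.18 in Col-0, and none passed, where 1.16% and 1.23% of all genes did. Without the 2 arrays of narrowest spread the responses of these 5 lay between -0.20 and 0.28 in tori 35-7 and between -0.14 and 0.38 in Col-0, again without passing. The group means of AT2G46810, AT1G22490, AT1G72210 and AT5G65320 were at most 2.95, below the median over all probe sets on every array. Over all 12 arrays the median response of the 8 relatives was 0.10 in tori 35-7 and 0.14 in Col-0, beside 0.01 over all genes in each. Between the genotypes none of the 8 passed with all 12 arrays, where 0.568% of all genes passed on control medium and 0.822% under water deficit. Under water deficit AT4G01460 differed by -0.73 ± 0.23 between tori 35-7 and Col-0 (adjusted p = 0.167), and by -1.07 ± 0.15 without the 2 arrays of narrowest spread (adjusted p = 0.00413). That difference also passed with array weights (0.0145) and without Col-0 water deficit replicate 1 alone (0.00459). Over all 12 arrays the value nearest to FMA's on control medium was that of SPCH at -0.19 ± 0.36 (adjusted p = 0.927), followed by AT4G01460 at -0.18 ± 0.23 (adjusted p = 0.878). AT1G22490 was 0.29 ± 0.16 higher in tori 35-7 there without passing (adjusted p = 0.608). Without the 2 arrays of narrowest spread SPCH turned, to 0.22 ± 0.18 on control medium (adjusted p = 0.712). The nearest to FMA was then AT3G61950 at -0.23 ± 0.14 (adjusted p = 0.581).

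Of 24 genes of mature guard cells, the cells that FMA specifies, 5 were measured and none passed in any comparison. As 0.00604% to 1.23% of all genes passed in the 5 comparisons, none of 5 is near that share. CHX20 encodes a cation/proton exchanger that takes part in stomatal opening. It was at 4.83, 4.44 and 4.60 in tori 35-7 under water deficit, against 3.95, 4.30 and 4.25 in tori 35-7 on control medium, without overlap. Its response was 0.46 ± 0.16 in tori 35-7 (adjusted p = 0.299) and 0.27 ± 0.16 in Col-0 (adjusted p = 0.541). Without the 2 arrays of narrowest spread it was 0.35 ± 0.14 in tori 35-7 (adjusted p = 0.286) and 0.42 ± 0.14 in Col-0 (adjusted p = 0.14). AT4G14480, or BLUS1, encodes a kinase of the blue light signal that opens stomata. It was at 4.50, 4.86 and 4.68 in tori 35-7 under water deficit, against 3.78, 4.24 and 4.36 in tori 35-7 on control medium, also without overlap. Its response was 0.56 ± 0.25 in tori 35-7 (adjusted p = 0.508) and -0.06 ± 0.25 in Col-0 (adjusted p = 0.953), and its genotype difference on control medium was -0.48 ± 0.25 (adjusted p = 0.596). Without the 2 arrays of narrowest spread these values were 0.38 ± 0.19 in tori 35-7, 0.25 ± 0.19 in Col-0 and -0.30 ± 0.19 for the genotypes (adjusted p = 0.443, 0.616 and 0.599), so the estimate in Col-0 turned.

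The other 3 guard cell genes are given by locus alone in the reference table. AT1G22690 had a response of 0.39 ± 0.17 in tori 35-7 (adjusted p = 0.46) and 0.65 ± 0.17 in Col-0 (adjusted p = 0.0787), with no overlap in either genotype. AT2G16630 had one of -0.24 ± 0.28 in tori 35-7 (adjusted p = 0.9) and -1.02 ± 0.28 in Col-0 (adjusted p = 0.0937). Both would have passed in Col-0 without Col-0 water deficit replicate 2 (adjusted p = 0.0298 for AT1G22690 and 0.0477 for AT2G16630), in opposite directions. Without Col-0 water deficit replicate 1, an array of narrow spread, AT2G16630 in Col-0 was at -0.57 ± 0.15 (adjusted p = 0.0766) and AT1G22690 at 0.44 ± 0.13 (adjusted p = 0.127). AT5G06970 was at 0.04 ± 0.19 in tori 35-7 (adjusted p = 0.989) and at -0.40 ± 0.19 in Col-0 (adjusted p = 0.403), and without both arrays of narrow spread at -0.20 ± 0.12 in tori 35-7 (adjusted p = 0.571) and -0.23 ± 0.12 in Col-0 (adjusted p = 0.402).

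Over the 10 stomatal and guard cell genes measured besides FMA, of 54 listed, the estimated response was above 0 for 8 in tori 35-7 and for 5 in Col-0, where 51.6% and 52.7% of all genes were above 0. Their median response was 0.16 in tori 35-7 and 0.10 in Col-0. Without the 2 arrays of narrowest spread the order of the genotypes was the other way, with 6 of 10 above 0 in tori 35-7 (median 0.15) and 7 of 10 in Col-0 (median 0.33), where 53.2% and 47.9% of all genes were above 0. The genotype difference was above 0 for 3 of the 10 on control medium and for 7 under water deficit, where 48.5% and 47.5% of all genes were above 0, with medians of -0.04 and 0.11. Without those 2 arrays it was above 0 for 4 of 10 on control medium and for 3 of 10 under water deficit, with medians of -0.04 and -0.11. FMA's response in tori 35-7 (0.85) lay above the highest of the 10 (0.56), and its genotype difference on control medium (-0.78) below the lowest (-0.48). In Col-0 the response of FMA (0.47) lay within their range of -1.02 to 0.65. Without those 2 arrays FMA lay outside their range in all 3 cases, at 0.70 against a highest of 0.48 in tori 35-7, 0.66 against 0.56 in Col-0 and -0.64 against a lowest of -0.30 for the genotypes on control medium. FMA was chosen because its levels differed between these groups. A place beyond the other genes was favoured by that choice and is a description only. With an unadjusted p under 0.05, 4 of the 10 differed under water deficit in tori 35-7 and 6 in Col-0, where 9.55% and 12.9% of all genes did. Between the genotypes 1 of the 10 differed so on control medium and 5 under water deficit, where 9.97% and 12.8% of all genes did. None of the 10 differed so between the responses, where 6.08% of all genes did.

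Markers of other cell types were measured in small numbers. The summed linear level of the 5 guard cell genes of 24 listed was 310.2 to 327.2 in tori 35-7 under water deficit, 249.9 to 316.4 in tori 35-7 on control medium, 301.4 to 309.1 in Col-0 under water deficit and 284.8 to 296.9 in Col-0 on control medium. The 249.9 was that of tori 35-7 control replicate 1, an array of narrow spread. AT1G22690 and AT5G06970 carry most of the guard cell sum, and their responses in Col-0 had opposite signs (0.65 ± 0.17 and -0.40 ± 0.19, neither past the threshold). The summed level of 4 mesophyll markers of 9, photosynthesis genes of the green inner leaf, was 2217 to 2414 in tori 35-7 under water deficit, 1948 to 2106 in tori 35-7 on control medium, 1713 to 2127 in Col-0 under water deficit and 2079 to 2279 in Col-0 on control medium. The mesophyll sum was higher under water deficit in tori 35-7, as FMA was, without overlap. In Col-0 it ranged lower under water deficit, with overlapping ranges. The low end, 1713, was that of replicate 2, with PSAE-1 at 9.16 and RCA at 9.81 (log2). The sums of replicates 1 and 3 lay within the range of the controls, so the lower range rests on 1 array. The sum is linear, so RCA and PSAE-1 carry most of it, with group means of 9.54 to 10.29 (log2) against 4.55 to 7.89 for LHCB4.1 and LHCB4.2. The 4 markers did not move as 1. RCA, the activase of the carbon-fixing enzyme, had estimates below 0, at -0.24 ± 0.12 in tori 35-7 (adjusted p = 0.565) and -0.32 ± 0.12 in Col-0 (adjusted p = 0.248). In Col-0 PSAE-1 was at -0.08 ± 0.16 (adjusted p = 0.896). LHCB4.1 (0.48 ± 0.14, adjusted p = 0.12) and LHCB4.2 were above 0 there, as FMA was. The part of the mesophyll sum in the FMA difference was not tested. Of these 4, LHCB4.2, an antenna protein gene, rose under water deficit in tori 35-7 (1.08 ± 0.15, adjusted p = 0.00271) where 0.822% of all genes rose, and in Col-0 (0.71 ± 0.15, adjusted p = 0.0372). The call in Col-0 was lost in 12 of 21 other settings (adjusted p up to 0.213). Under water deficit LHCB4.2 was also higher in tori 35-7 (0.88 ± 0.15 above Col-0, adjusted p = 0.0198), where 0.495% of all genes were higher. This is the opposite direction to FMA, and that call was lost in 4 of 21 other settings. LHCB4.1, PSAE-1 and RCA did not pass in any comparison with all 12 arrays. In other settings LHCB4.1, also an antenna protein gene, passed for water deficit in both genotypes after quantile normalization (adjusted p = 0.0431 in tori 35-7 and 0.0284 in Col-0) and when Col-0 water deficit replicate 1 was left out (0.0363 in tori 35-7 and 0.0365 in Col-0). It also passed in tori 35-7 with array weights (0.0134) and in Col-0 without the 2 arrays of narrowest spread (0.0297). PSAE-1, a photosystem subunit gene, passed for water deficit in tori 35-7 with array weights (0.0401) and for the genotypes under water deficit without the 2 arrays of narrowest spread (0.0444). The sum of 2 root hair markers of 8, EXPA7 and EXPA18, was 26.5 to 30.4 in tori 35-7 under water deficit, 25.5 to 28.5 in tori 35-7 on control medium, 29.7 to 31.7 in Col-0 under water deficit and 28.2 to 30.6 in Col-0 on control medium. TRY, 1 trichome marker of 9, was at 5.43 to 6.44 in tori 35-7 under water deficit, 5.46 to 6.67 in tori 35-7 on control medium, 5.09 to 6.22 in Col-0 under water deficit and 5.66 to 6.06 in Col-0 on control medium on the linear scale. Neither group of markers passed in any comparison, where 0.00604% to 1.23% of all genes did. Of the lists of shoot epidermis, vascular, myrosin cell and mitotic genes no member was analysed here.

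The genes whose levels followed FMA most closely were looked for among the 6220 genes with an SD of at least 0.25 over the 12 arrays, by Pearson's correlation over the 12 arrays. These correlations describe 12 points in 4 groups of shared arrays, and 58 genes had an r of at least 0.8. The highest were AT4G23050 (r = 0.94, Spearman's rho 0.83), TAPX (0.93 and 0.97), AT1G78170 (0.93 and 0.94), AT3G62820 (0.93 and 0.92), AT1G27030 (0.92 and 0.90) and AT2G21080 (0.92 and 0.90). TAPX, the thylakoid ascorbate peroxidase that removes hydrogen peroxide in chloroplasts, also ranked highest by Spearman's rho. Without the 2 arrays farthest from the median of FMA, tori 35-7 control replicates 1 and 2, the 6 values of r were 0.83 to 0.94, and without the 2 arrays of narrowest spread 0.90 to 0.97. For the deviations from the group means, which are part of the values that picked these genes, r was 0.52 to 0.79 over 12 arrays and 0.31 to 0.89 without the 2 arrays of narrowest spread. The median over the 6220 genes was 0.20 over 12 arrays and -0.01 without those 2.

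In all 6 genes the group with the lowest mean was tori 35-7 on control medium and the one with the highest was Col-0 under water deficit, as for FMA. TAPX was at 7.53 ± 0.09 in tori 35-7 under water deficit, 7.17 ± 0.12 in tori 35-7 on control medium, 7.80 ± 0.07 in Col-0 under water deficit and 7.40 ± 0.16 in Col-0 on control medium (SD, n = 3 each). AT1G78170 had responses of 0.85 ± 0.21 in tori 35-7 and 0.75 ± 0.21 in Col-0, and genotype differences of -0.50 ± 0.21 on control medium and -0.40 ± 0.21 under water deficit. AT3G62820 had responses of 0.79 ± 0.13 in tori 35-7 and 0.28 ± 0.13 in Col-0, and genotype differences of -0.66 ± 0.13 on control medium and -0.15 ± 0.13 under water deficit. Since these genes were picked by their likeness to FMA, no test is attached to their differences.

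**Figure D4:**
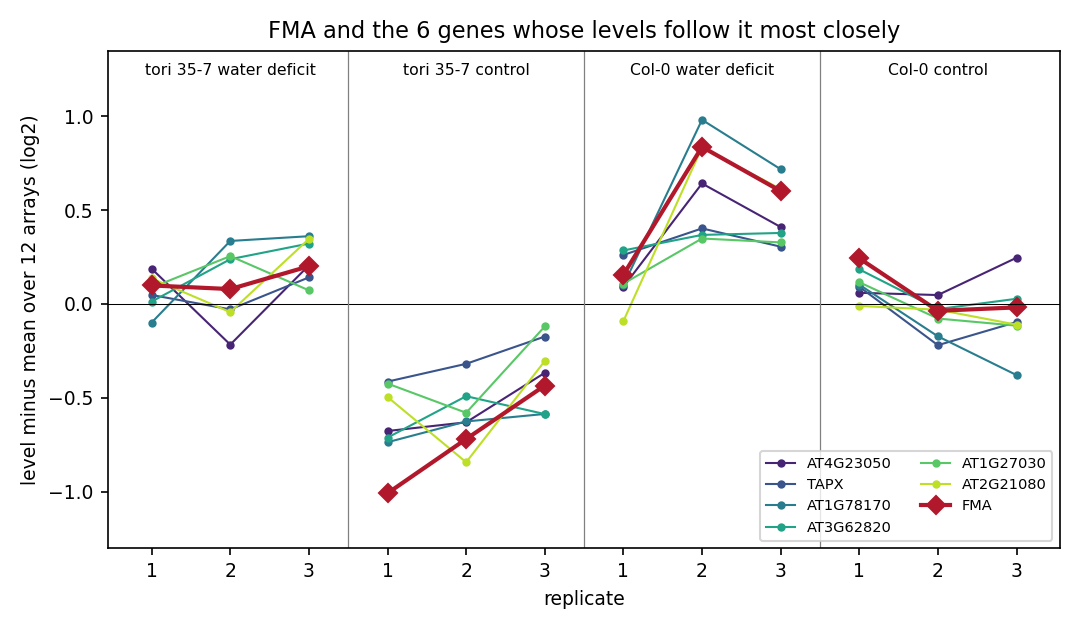
Level minus the mean over the 12 arrays (log2, vertical axis) of FMA (red diamonds) and of the 6 genes with the highest Pearson correlation with it (0.92 to 0.94), by replicate within the 4 groups, with lines joining the arrays of a group only to guide the eye. All 7 genes lie below their mean on the 3 tori 35-7 control arrays, and on Col-0 water deficit replicates 2 and 3 all lie above it.

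The genes that ran most nearly opposite to FMA were ATPMEPCRB (r = -0.90), AT5G33355 (-0.87), AT5G40510 (-0.87) and AT5G05365 (-0.86), and 25 genes had an r of at most -0.8. Outside tori 35-7 on control medium, the group means of AT5G33355 (2.07 to 2.46) and AT5G05365 (2.53 to 2.75) lay below the median over all probe sets. How far these levels stand above background is unknown. ATPMEPCRB, which encodes the pectin methylesterase PME41 and so acts on the cell wall, was at 4.56, 4.66 and 4.65 in tori 35-7 under water deficit, against 6.04, 5.68 and 5.42 in tori 35-7 on control medium. In Col-0 it was at 4.48, 4.55 and 4.25 under water deficit, against 4.75, 4.53 and 5.03 on control medium. It was thus highest on the 3 arrays where FMA was lowest, and its r was -0.72 without the 2 arrays farthest from the median of FMA.

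Among the stomatal and guard cell genes, those with the highest r with FMA were CHX20 (r = 0.73, rho 0.52), AT4G14480 (0.65 and 0.50), STOMAGEN (0.60 and 0.54) and AT1G22690 (0.56 and 0.70), and AT1G22690 had the highest rho of the 10. At the other end were AT2G16630 (r = -0.45, rho -0.68), AT5G06970 (-0.14 and -0.31) and SOL1 (0.07 and -0.01). The group Ia relative AT4G01460 was at an r of 0.80 and a rho of 0.76, and 0.932% of the 6220 genes had a higher r. SPCH, at 0.33, followed FMA little over all arrays but closely within groups. The deviations of SPCH and FMA from their group means had an r of 0.92 over the 12 arrays, and 0.257% of the 6220 genes were higher. The median r of such deviations was 0.20 over these genes. In both genes the deviations furthest below 0 were those of Col-0 water deficit replicate 1 (-0.38 for FMA and -0.92 for SPCH) and tori 35-7 control replicate 1 (-0.29 and -0.82). Without these 2 arrays of narrowest spread, r was 0.68 over 10 arrays for SPCH, 0.20 for SOL1, against 0.78 over 12, and 0.38 for AT5G06970, against 0.84 over 12. For MUTE it was 0.54, against -0.31 over 12, and for STOMAGEN 0.32, against 0.18 over 12. For the relative AT4G01460 it was -0.38, against 0.56 over 12. Over the 10 stomatal and guard cell genes r lay between -0.25 and 0.68 on those 10 arrays, against -0.50 to 0.92 over 12. The part of the narrow spread in these values was not tested further.

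**Figure D5:**
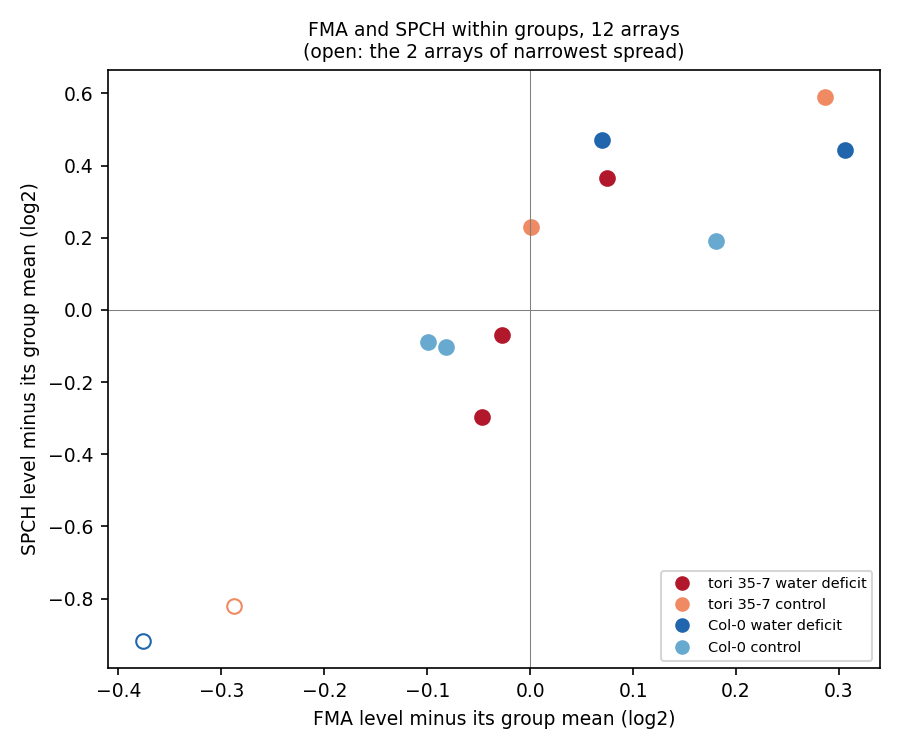
SPCH level minus its group mean (vertical axis, log2) against FMA level minus its group mean (horizontal axis, log2) on the 12 arrays, coloured by group, with the 2 arrays of narrowest spread as open circles. The open circles lie lowest on both axes, at -0.92 and -0.82 for SPCH, and the other 10 arrays have an r of 0.68 when centred anew.

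The genes next to FMA on the chromosome were also looked at. Of the 5 loci on each side in the reference table, chosen after the values of FMA were known, 8 were measured, and none passed in any of the 5 comparisons. Over all genes 0.00604% to 1.23% passed in these comparisons, so none of 8 is near that share. The immediate neighbours, AT3G24130 and AT3G24150, had responses of 0.02 ± 0.14 (adjusted p = 0.992) and -0.02 ± 0.16 (adjusted p = 0.993) in tori 35-7. On control medium their genotype differences were -0.14 ± 0.14 (adjusted p = 0.849) and 0.02 ± 0.16 (adjusted p = 0.984). Over the 8 neighbours the response in tori 35-7 lay between -0.20 and 0.35 and the genotype difference on control medium between -0.35 and 0.35, against 0.85 and -0.78 for FMA. FMA was chosen for its differences and the neighbours were not, so this contrast is a description only.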

How the data were processed

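Whole-seedling RNA of 12 samples in 4 groups was measured on Affymetrix arrays. The authors deposited 1 processed value per probe set and array, taken here as log2 levels (1.13 to 13.2), and per the submitters' processing notes they worked with TAC 4.0.1, the array maker's analysis software. The table does not name its scale. Which background correction and normalization made the values is not given in the sources used here, and their effect on the values is unknown. There are 38408 probe sets. The platform annotation names 1 gene for 16722 probe sets, several for 759 (left out) and none for 20927. Symbols were updated through RefSeq's TAIR10.1 table (16411 genes matched, 139 not), and the brightest probe set stood for each of 16550 genes.

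The 4 group means were fitted to all 12 arrays with limma 3.58.1 in R 4.3.3 (lmFit, eBayes), giving 5 comparisons with two-sided p-values, Benjamini-Hochberg adjusted over all genes. The labels do not say whether replicates were separate cultures, so the spread may be technical. No 2 arrays were identical. FMA and the gene lists (122 genes, 24 measured) were chosen with earlier results of these data known. The text names the stomatal, patterning and group Ia genes measured, of other lists the members past the threshold and the 3 with the smallest p, and the 6 genes most and 4 least correlated with FMA. Beside that rule, AT4G14480, AT5G06970 and RCA, which complete their lists, and 2 chromosomal neighbours are named, chosen after their values were seen. The fit was tried on simulated data with the same noise per gene on every array. That trial does not cover the 2 arrays of narrowest spread. The replicate numbers did not pair the arrays (correlations of deviations -0.06 to 0.07). Sequences were not used here.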

Additional observations from a re-analysis of the deposited data

How the results depend on the processing

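Leaving out 1 array at a time, the FMA response to water deficit was 0.70 to 0.99 in tori 35-7 and 0.32 to 0.66 in Col-0, the genotype difference was -0.93 to -0.64 on control medium and -0.59 to -0.25 under water deficit, and the difference of the responses was 0.19 to 0.53. In the other settings these 5 values lay at 0.70 to 0.86, 0.44 to 0.66, -0.78 to -0.64, -0.59 to -0.36 and 0.047 to 0.42. All kept their sign, and the one that moved by more than the spread between replicates was the difference of the responses, at 0.047 without the 2 arrays of narrowest spread. Fitting replicate number as a block left the FMA response in tori 35-7 at 0.85 ± 0.18, and the numbers do not pair the arrays. The block changed no count of stomatal and guard cell genes.

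The count of stomatal and guard cell genes other than FMA past adjusted p 0.05 was 0 in all 5 comparisons. For water deficit it was 1 in tori 35-7 with array weights and 1 in Col-0 after quantile normalization, and without 1 array it was 0 to 1 in tori 35-7 and 0 to 2 in Col-0. It was 0 in every setting for the genotype comparisons and for the difference of the responses, which cannot be fitted on 6 arrays alone. Over all genes, the 192 called for water deficit in tori 35-7 became 70 to 668 across settings, the 203 in Col-0 39 to 461, the 94 for the genotypes on control medium 11 to 421, the 136 under water deficit 8 to 444, and the 1 for the difference of the responses 0 to 2. The cause was not tested. The 35 other genes named with values gave 3630 values over comparisons and settings, of which 164 had another sign than with all arrays. None of those 164 passed in either setting. By Spearman's rho 5 of the 6 genes most like FMA stayed among the top 6, without the 2 arrays farthest from the median of FMA 2 did, and by deviations from the group means 0 did. No detection calls are given here, so signal over background is unknown for FMA and for genes of lower level such as MUTE and TRY. The 3 arrays per group also limit what differences can be seen.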
